A study of Mus musculus with 9 samples.

Results

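Solute carriers are the largest group of membrane transport proteins in mammals. They were followed here in livers of C57BL/6 mice aged 8 weeks that had undergone ischaemia-reperfusion with ischaemic postconditioning (IPO), ischaemia-reperfusion alone (I/R) or a sham operation. The members are the genes of the deposited gene table whose symbol starts with Slc and a digit, with 3 genes left out by the rule. This gave 208 genes of 11229 in the table. There were 3 libraries per group, 9 in all, made with a stranded kit from total RNA of frozen liver. The sources used here give neither the times of ischaemia and reperfusion nor the lobe sampled nor the sex of the mice. No genotype, drug or diet is named for any group. The sample descriptions also carry a number of unstated meaning, which all IPO libraries share and no other library has. In comparisons with IPO, the operation and this number cannot be told apart. Nothing in the labels states that replicates came from separate animals, so the spread that the p-values measure may be technical.

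Solute carriers move amino acids, sugars, nucleosides, metals, organic ions and metabolites across membranes, mostly down a gradient or by coupling to sodium, protons or a counter-substrate. In hepatocytes they load the cell with amino acids, fatty acids, bile acids and drugs from sinusoidal blood and release glucose and plasma metabolites into it. The Slc25 family lies mainly in the inner mitochondrial membrane, where it exchanges nucleotides, keto acids, carnitines and cofactors with the cytosol. The Slc39 (ZIP) proteins bring zinc into the cytosol and the Slc30 (ZnT) proteins take it out or into vesicles. Ischaemia stops oxidative metabolism and reperfusion restores oxygen abruptly, and postconditioning interrupts early reperfusion with short occlusions.

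Values are FPKM, fragment numbers scaled to transcript length and library size, as the authors deposited them, so levels of different genes can be set side by side per length. Of the 208 members, 29 averaged below 1 FPKM over the 9 libraries, 101 from 1 to below 10, 68 from 10 to below 100, and 10 reached 100 or more. The 179 members that averaged 1 FPKM or more were tested, within one fit of all 9649 genes that passed this filter. A change was called at a Benjamini-Hochberg adjusted p under 0.05 in limma on log2(FPKM + 0.5), and fold changes are on that scale, which understates the change of low genes. The depth behind the FPKM values is unknown. Members made up 1.13% ± 0.0145 of the summed FPKM of all genes in IPO livers, 1.41% ± 0.132 in I/R livers and 1.19% ± 0.0948 in sham livers (SD, n = 3 each).

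Libraries of the sham group were not uniform. On the first principal component of the members, which held 54.9% of their variance, the I/R libraries lay at 4.44 to 6.98 and the IPO libraries at -3.99 to -3.18. Sham replicates 1 and 2 lay at -3.82 and -3.30, but sham replicate 3 lay at 0.56, between the IPO and I/R libraries. I/R replicate 3 had the highest summed Kupffer cell markers, 464 FPKM, against 196 and 123 FPKM in I/R replicates 1 and 2, 135 to 157 FPKM in IPO libraries and 111 to 154 FPKM in sham libraries. The neutrophil markers summed to 48.3 to 129 FPKM in IPO, 11.3 to 73.9 FPKM in I/R and 64.4 to 91.9 FPKM in sham libraries, with 6 of 10 listed genes in the table. All 10 hepatocyte markers were present, and their sums were 27009 to 29018 FPKM in IPO, 28318 to 35753 FPKM in I/R and 22197 to 30243 FPKM in sham libraries. The sinusoidal endothelial markers, all 8 in the table, summed to 76.0 to 84.3 FPKM in IPO, 86.3 to 136 FPKM in I/R and 59.1 to 94.2 FPKM in sham libraries; 4 were called higher and 1 lower in I/R against sham, and 1 higher and 3 lower in IPO against I/R. The 7 stellate markers summed to 122 to 146 FPKM in IPO, 98.1 to 182 FPKM in I/R and 112 to 131 FPKM in sham libraries, with 2 called higher in I/R against sham and 1 lower in IPO against I/R. Erythroid markers, 5 of 6 in the table, summed to 357 to 509 FPKM in IPO, 579 to 1196 FPKM in I/R and 362 to 809 FPKM in sham libraries. T, NK and B cell markers, 4 of 7 in the table, summed to 0.414 to 0.575 FPKM in IPO, 0.935 to 11.6 FPKM in I/R and 0.964 to 2.27 FPKM in sham libraries, and both lists were highest in I/R replicate 3. Among neutrophil markers, 1 was called lower in I/R against sham and 2 higher in IPO against I/R. In IPO against I/R, 2 hepatocyte, 1 cholangiocyte and 1 erythroid marker were called lower. Kupffer markers had 0 calls in these comparisons. Of all tested genes, 3.86% were called higher and 7.64% lower in I/R against sham, and 11.96% and 10.1% in IPO against I/R. The part of these cell type differences in the results was not tested. In bulk liver, fewer cells of a type and less RNA per cell cannot be told apart.

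Ischaemia-reperfusion was set against sham surgery to ask which transporters the injury changes. In I/R livers, 17 members fell and 8 rose relative to sham livers, and the changed genes were spread over zinc, amino acid, bile acid, magnesium, sugar phosphate and mitochondrial transport. The 17 lower calls were 9.50% of the tested members, against 7.64% of all tested genes. The 8 higher calls were 4.47%, against 3.86% of all tested genes. In both directions the members were thus called at a share close to that of all genes. Their median log2 fold change was 0.06, against -0.05 for all tested genes. Of the 25 calls, 9 held when each of the 9 libraries was left out in turn, among them Slc39a14, Slc37a1, Slc30a5, Slc35e3, Slc25a25, Slc25a51, Slc41a1 and Slc16a10. The 8 higher calls became 2 without sham replicate 1 or sham replicate 2 and 13 without sham replicate 3. The 17 lower calls became 8 and 9 when sham replicate 1 or sham replicate 2 was left out, 10 when IPO replicate 3 or I/R replicate 2 was, and 11 when I/R replicate 1 was. Among higher calls, the count was also 5 without IPO replicate 1 or I/R replicate 2, 4 without IPO replicate 2 or IPO replicate 3, and 3 without I/R replicate 1. The sample descriptions carry a number of unstated meaning that is the same in all I/R libraries and 1 sham library and differs in the other 2 sham libraries; with it as a term, 2 members were called higher and 6 lower. Of the genes named in the text, 14 lost their call in I/R against sham with this term (adjusted p 0.0583 to 0.347).

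Postconditioning was set against ischaemia-reperfusion alone to ask which transporters it changes. In IPO livers, 23 members rose and 28 fell relative to I/R livers, and 13 of the falls were mitochondrial carriers. The 23 higher calls were 12.8% of the tested members, against 11.96% of all tested genes. The 28 lower calls were 15.6%, against 10.1% of all tested genes. The median log2 fold change was -0.11 for members and 0.02 for all tested genes. Of the 51 calls, 20 held when each library was left out in turn, among them Slc39a14, Slc37a1, Slc10a2, Slc12a7, Slc41a1, Slc10a6, Slc23a2, Slc27a1 and Slc25a47. The 28 lower calls became 9 without IPO replicate 1, 15 without IPO replicate 2, 10 without IPO replicate 3 and 17 without I/R replicate 2. The 23 higher calls became 13 without IPO replicate 1 and 14 without either of the other IPO libraries.

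Against sham surgery, postconditioning left no member past the threshold. IPO livers had 0 called members in limma against sham livers, with 22 of all 9649 genes called (0.228%, of which 0.124% higher and 0.104% lower). At an unadjusted p under 0.05, 5 members were higher and 14 lower in IPO livers. The smallest adjusted p was 0.0858, for Slc12a7, a potassium-chloride cotransporter. This does not show that IPO and sham livers were alike. The I/R libraries enter both of the other comparisons, so the fold changes against sham and those of IPO against I/R are given below side by side and do not count as separate evidence. For 23 members all 3 I/R libraries lay below all 6 others, and for 24 they lay above all 6 others; among all tested genes these shares were 14.3% and 9.60%. Called in both comparisons were 14 members that were lower in I/R than in sham and higher in IPO than in I/R, and 8 members with the opposite signs. These were 7.82% and 4.47% of the tested members, against 5.95% and 2.98% of all tested genes.

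**Figure D1:**
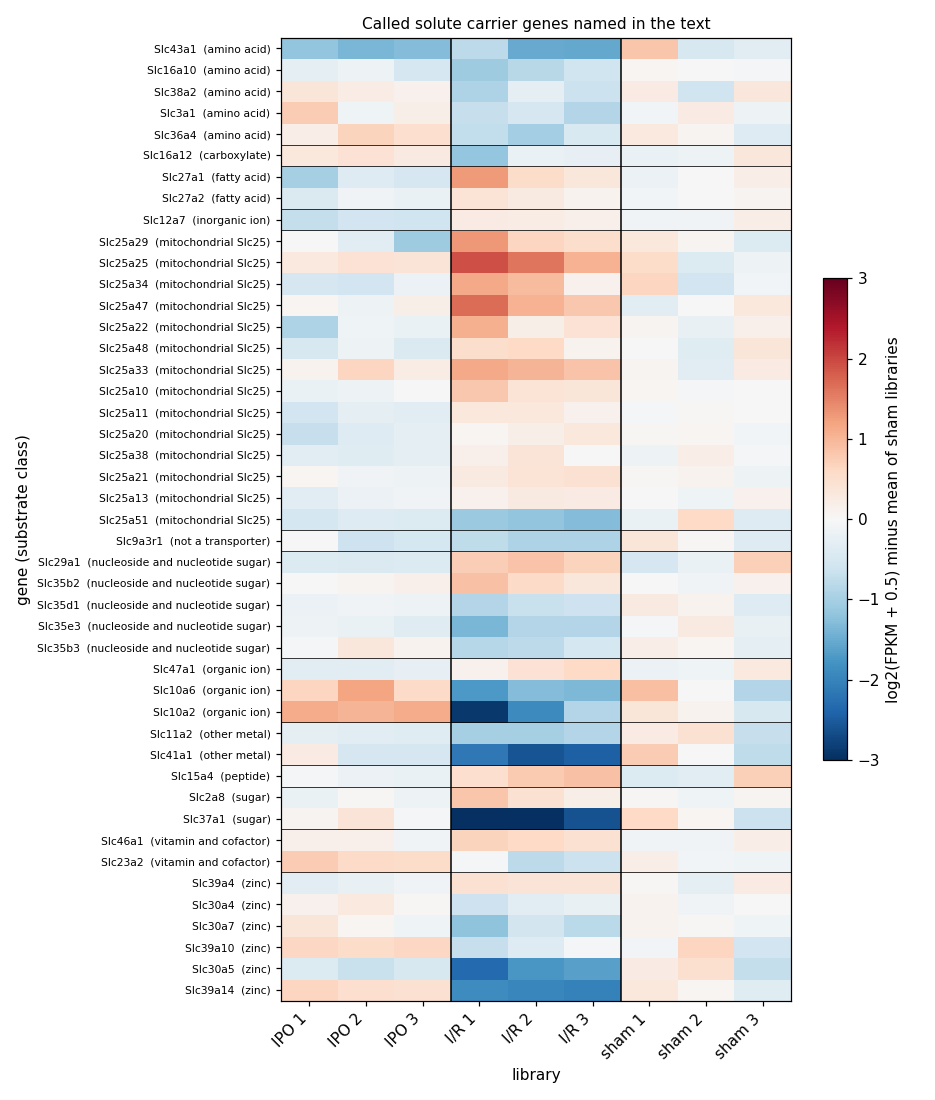
Heatmap of log2(FPKM + 0.5) minus the mean of the 3 sham libraries (colour, limited to -3 to 3) for the members named in the text that were called in I/R against sham or in IPO against I/R (rows, with substrate class) in each of the 9 libraries (columns). Blue in the I/R columns marks falls, as for Slc37a1, Slc41a1, Slc39a14 and Slc10a2 (log2 fold changes of -3.01, -2.40, -1.96 and -1.90 in I/R against sham).

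The zinc transporters held the change with the smallest adjusted p in both comparisons. All 18 zinc members were tested. In I/R livers 3 fell relative to sham livers (16.7%, against 7.64% of all tested genes) and limma called 0 higher (2 at an unadjusted p under 0.05), and the class median log2 fold change was -0.37, or -0.18 without sham replicate 2. In IPO livers 5 rose (27.8%, against 11.96% of all tested genes) and 1 fell (5.56%, against 10.1%) relative to I/R livers, with a class median of 0.35. The summed FPKM of the 18 genes was 313 ± 11.97 in IPO, 173 ± 9.33 in I/R and 294 ± 54.9 in sham livers (SD, n = 3 each). Slc39a14 alone made up 39.9% ± 0.984 of this sum in IPO livers, 12.6% ± 1.27 in I/R livers and 29.7% ± 2.66 in sham livers. The 5 higher calls became 3 without any 1 of the IPO libraries or without I/R replicate 1 or 2, and 7 without sham replicate 3. The 3 lower calls became 2 without I/R replicate 1, sham replicate 1 or sham replicate 2 and 5 without sham replicate 3.

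Slc39a14 (ZIP14, chr14:70303469-70351425, minus strand, mm10) imports zinc, manganese and iron across the hepatocyte plasma membrane and is known in mouse liver as an acute-phase gene. It measured 133, 122 and 118 FPKM in IPO livers, 22.7, 21.8 and 20.6 FPKM in I/R livers, and 107, 89.3 and 66.2 FPKM in sham livers. The I/R libraries sat within 3 FPKM of each other and far below all 6 others, and every IPO library lay above every sham library. Its log2 fold change was -1.96 ± 0.17 (SE) in I/R against sham (adjusted p = 0.00049) and 2.496 ± 0.17 in IPO against I/R (adjusted p = 0.000216). In IPO against sham it was 0.53 ± 0.17, which did not pass (adjusted p = 0.236). The authors' deposited table, made from the same libraries, lists the gene with a log2 fold change of -1.94 in I/R against sham and 2.47 in IPO against I/R. The authors' own q-values for it were 0.106 and 0.0162. The first was the lowest q of the members they list in I/R against sham.

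Slc30a5 (ZnT5, chr13:100802649-100833427, minus strand) carries zinc into the early secretory pathway, where zinc-dependent enzymes such as alkaline phosphatases are loaded. It measured 30.4, 25.4 and 28.7 FPKM in IPO livers, 7.66, 11.6 and 12.6 FPKM in I/R livers, and 48.3, 56.3 and 24.2 FPKM in sham livers. The I/R libraries were lowest without overlap, while sham replicate 3 lay below all IPO libraries. Its log2 fold change was -1.91 ± 0.30 in I/R against sham (adjusted p = 0.00611) and 1.39 ± 0.30 in IPO against I/R (adjusted p = 0.0112). Slc30a7 (ZnT7), which serves the same compartment, was 2.96 to 4.33 FPKM in IPO, 1.14 to 2.07 FPKM in I/R and 2.94 to 3.52 FPKM in sham livers. It was called in both comparisons, at -0.85 ± 0.19 (adjusted p = 0.0246) and 0.95 ± 0.19 (adjusted p = 0.00943). The first of these calls was lost without I/R replicate 1 (adjusted p = 0.0546), sham replicate 1 (0.0923) or sham replicate 2 (0.0855).

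Slc30a4, a vesicular zinc transporter, and Slc39a10, a plasma membrane zinc importer, passed in IPO against I/R but not in I/R against sham, at 0.54 ± 0.15 (adjusted p = 0.0291) and 0.96 ± 0.29 (adjusted p = 0.0434). Slc30a4 lost its call without any 1 of the IPO libraries, I/R replicate 1 or I/R replicate 2 (adjusted p 0.0577 to 0.101), and Slc39a10 without these or sham replicate 1 (0.0605 to 0.117). Slc39a4 (ZIP4), best known as the intestinal zinc importer, moved the other way, with 18.7, 20.3 and 22.1 FPKM in IPO, 32.6, 31.2 and 30.99 FPKM in I/R and 24.4, 19.4 and 28.4 FPKM in sham livers. It fell by 0.62 on the log2 scale in IPO against I/R (SE 0.15, adjusted p = 0.017), and this call was lost without IPO replicate 1 (0.0636) or IPO replicate 2 (0.0541). Among members that were not called, Slc30a10, a manganese and zinc exporter, had log2 fold changes of -0.91 in I/R against sham (adjusted p = 0.0851) and 0.96 in IPO against I/R (adjusted p = 0.0527). Slc30a1, which exports zinc at the plasma membrane, had -0.26 and 0.37 in the same order, neither called.

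Metallothioneins buffer cytosolic zinc. The data hold no measure of zinc, and whether these genes followed it was not tested. Mt1 measured 2470, 2630 and 2617 FPKM in IPO livers, 605, 396 and 461 FPKM in I/R livers, and 2341, 2532 and 1419 FPKM in sham livers. Its log2 fold change was -2.08 in I/R against sham (adjusted p = 0.00148) and 2.42 in IPO against I/R (adjusted p = 0.000407). Mt2 was called in the same directions, at -2.24 and 2.605 on the log2 scale. The list of 4 genes that Mt1 and Mt2 belong to also held Mtf1 and Mtf2, which are not metallothioneins. Mtf1 was called lower in I/R against sham only, and Mtf2 higher in IPO against I/R only. With them, 75% of the list was called each time, against 7.64% of all tested genes lower and 11.96% higher in these comparisons. This list was drawn up with earlier results of these data known.

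The upstream window of Slc30a5 is shown as that of a zinc transporter called in both comparisons. Windows are the 250 bases before the RefSeq transcription start on build GRCm38.p6, the build that mm10 denotes, written 5′ to 3′ on the gene's strand with motif matches in capitals. A window was found for 158 of the 208 members, 217 windows in all. The 6 motifs were searched on both strands, and matches to different motifs may overlap: TGCNCNC (metal response element core), TGATGNAA (C/EBP-ATF element), TTCNNNGAA (STAT site), TGACNNNGC (antioxidant response element core), CACGTG (E-box) and TGANTCA (AP-1 site). Among all 32851 RefSeq windows of the same length, they matched in 44.4%, 3.45%, 7.02%, 10.2%, 6.02% and 6.75%, in that order. The first and last patterns are looser than the elements they are named after. The usual metal core has A or G at its first N, and the usual AP-1 site has C or G. In the Slc30a5 window, chr13:100833428-100833677, the capitals mark an E-box 61 to 56 bases before the start and a metal response element core 48 to 42 bases before it.
Slc30a5: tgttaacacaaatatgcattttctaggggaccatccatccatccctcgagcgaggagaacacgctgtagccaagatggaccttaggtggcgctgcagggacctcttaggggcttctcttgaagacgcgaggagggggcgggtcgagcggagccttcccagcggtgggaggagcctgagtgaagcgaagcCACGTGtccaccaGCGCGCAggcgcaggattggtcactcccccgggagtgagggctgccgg
The loose metal pattern TGCNCNC occurred in 12 of 18 windows of zinc members (66.7%), against 49.3% of the windows of all members. These windows came from 15 of the 18 zinc members, and Slc39a14 had none. Members called lower in I/R against sham had the pattern in 5 of 13 windows (38.5%). Members called higher in IPO against I/R had it in 7 of 21 windows (33.3%). With the opposite calls, it was in 2 of 8 windows (higher in I/R) and 22 of 38 (lower in IPO). A link between this pattern and the calls was not tested. A match is a description of these letters and not a shown binding site.

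**Figure D2:**
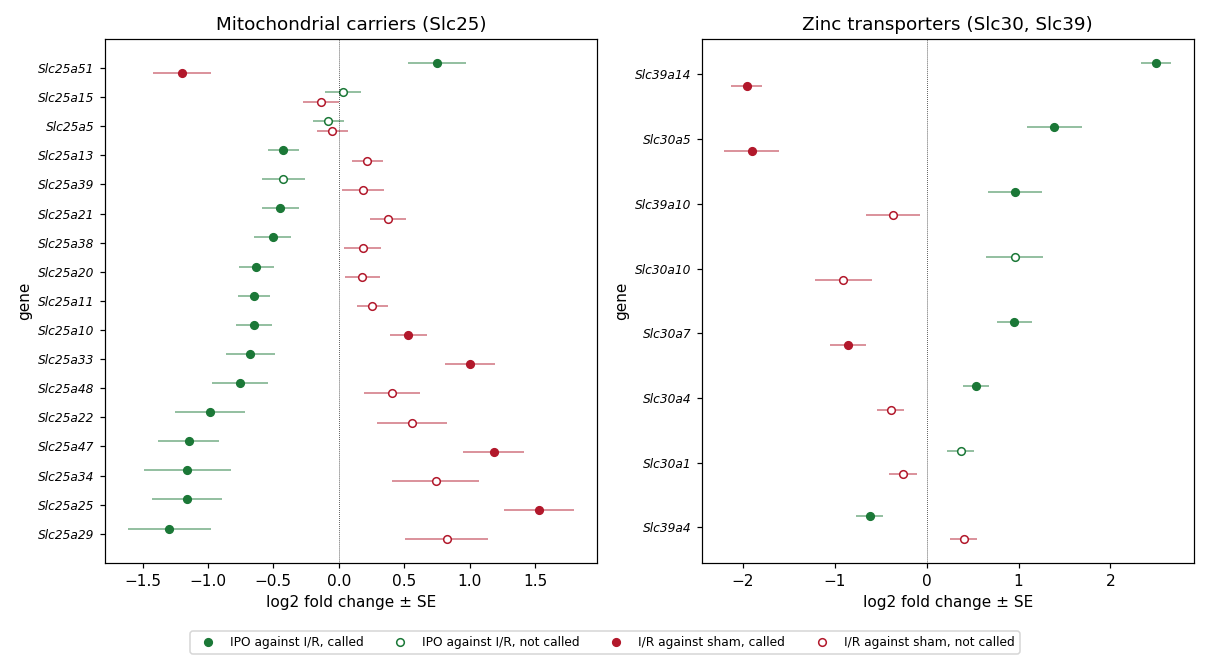
Log2 fold change ± SE (x axis) of the Slc25 carriers (left) and zinc transporters (right) that are named in the text and were tested, in IPO against I/R (green) and in I/R against sham (red), where filled points passed an adjusted p of 0.05. Both comparisons share the I/R libraries; Slc39a14 stands at 2.496 and -1.96, and most of the Slc25 carriers shown lie left of 0 in IPO against I/R.

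Mitochondrial carriers made up the largest class, with 38 members of which 34 were tested. In IPO livers 13 of these fell relative to I/R livers (38.2%, against 10.1% of all tested genes) and 2 rose (5.88%, against 11.96%). Of the 34, 25 had a log2 fold change below 0. The class median was -0.37, against 0.02 for all tested genes. In I/R livers 4 rose (11.8%, against 3.86% of all tested genes) and 2 fell (5.88%, against 7.64%) relative to sham livers, with a class median of 0.19. The summed FPKM was 1339 ± 61.8 in IPO, 2111 ± 384 in I/R and 1413 ± 62.8 in sham livers (SD, n = 3 each). Slc25a47 supplied 42.9% to 56.2% of the sum in I/R libraries. Without it the sum was 881 ± 35.9 in IPO, 1066 ± 41.995 in I/R and 962 ± 43.5 in sham livers. The 13 lower calls became 5, 8 and 4 without IPO replicates 1, 2 and 3, and 8 and 7 without I/R replicates 1 and 2, while the class median stayed between -0.41 and -0.19 in all 9 of these fits. The 4 higher calls in I/R against sham became 2 without sham replicate 1 and 1 without sham replicate 2.

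Slc25a47 (chr12:108851129-108856814, plus strand), a carrier known for its high level in liver, was the most abundant member. It measured 466, 402 and 505 FPKM in IPO livers, 1432, 924 and 780 FPKM in I/R livers, and 356, 449 and 550 FPKM in sham livers. All I/R libraries were above all others, and I/R replicate 1 was the highest by far, while IPO and sham overlapped. It changed by 1.18 ± 0.23 in I/R against sham (adjusted p = 0.0158) and -1.15 ± 0.23 in IPO against I/R (adjusted p = 0.00957). The first was lost without sham replicate 1 (adjusted p = 0.0661) or sham replicate 2 (0.0578), with only the 2 groups in the fit (0.0531), and with the description number as a term (0.112).

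Slc25a25 (SCaMC-2, chr2:32414487-32451445, minus strand), a calcium-regulated exchanger of ATP-magnesium for phosphate, had the largest rise in I/R livers among called members. It measured 34.7, 38.1 and 36.6 FPKM in IPO livers, 110, 86.4 and 58.4 FPKM in I/R livers, and 41.6, 21.2 and 25.1 FPKM in sham livers. The I/R libraries spread widely but did not overlap with either of the other groups. It changed by 1.53 ± 0.27 in I/R against sham (adjusted p = 0.0102) and -1.16 ± 0.27 in IPO against I/R (adjusted p = 0.0163). The second call was lost without IPO replicate 1 (adjusted p = 0.056) or IPO replicate 3 (0.0515). Slc25a25 overlaps Naif1 on the other strand, and the sources used here do not say whether counting used strand.

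Upstream windows of both carriers are shown because they had the largest rises of the class in I/R livers; these, and the windows of Slc37a1, Slc10a2 and Slc41a1 below, were chosen after the values were seen. For Slc25a25, chr2:32451471-32451720 on the minus strand, the most upstream of 3 RefSeq windows, holds antioxidant response element cores 100 to 92 and 31 to 23 bases before the start and a metal response element core 15 to 9 bases before it; the other 2 windows of the gene hold 0 matches to the 6 motifs. For Slc25a47, chr12:108850879-108851128 on the plus strand, the capitals match the loose metal pattern 87 to 81 and 44 to 38 bases before the start. Both matches lack the A or G of the usual metal core.
Slc25a25: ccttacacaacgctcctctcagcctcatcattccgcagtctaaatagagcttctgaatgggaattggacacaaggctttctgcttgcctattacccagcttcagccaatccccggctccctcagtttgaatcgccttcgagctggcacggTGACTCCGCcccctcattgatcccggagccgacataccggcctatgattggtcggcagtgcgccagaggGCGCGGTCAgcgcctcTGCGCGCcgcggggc
Slc25a47: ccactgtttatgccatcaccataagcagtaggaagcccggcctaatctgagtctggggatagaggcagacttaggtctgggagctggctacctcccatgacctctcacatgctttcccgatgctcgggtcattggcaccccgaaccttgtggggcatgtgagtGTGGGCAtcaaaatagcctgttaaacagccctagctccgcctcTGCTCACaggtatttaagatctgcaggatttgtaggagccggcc
Antioxidant response element cores matched in 9 of 40 windows of Slc25 members (22.5%) and in 16.6% of the windows of all members.

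Slc25a33, a pyrimidine nucleotide carrier, had 12.8, 18.99 and 13.9 FPKM in IPO, 26.7, 24.4 and 22.002 FPKM in I/R and 12.6, 9.37 and 14.1 FPKM in sham livers. Its I/R libraries were above all others. It rose by 1.00 ± 0.19 on the log2 scale in I/R against sham (adjusted p = 0.0131) and changed by -0.68 ± 0.19 in IPO against I/R (adjusted p = 0.0323). The rise was lost without sham replicate 2 (0.051), and the change in IPO without IPO replicate 1 or 3 or I/R replicate 1 or 2 (0.0746 to 0.11). Slc25a10, the dicarboxylate carrier, was called in both comparisons too, at 0.53 ± 0.14 (adjusted p = 0.0404) and -0.65 ± 0.14 (adjusted p = 0.0116). Its call in I/R against sham was lost in 8 of the 9 fits that left out a library, all but the fit without I/R replicate 3 (0.0583 to 0.13).

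Slc25a20, Slc25a11, Slc25a13 and Slc25a22 were lower in IPO than in I/R livers. Slc25a20, the carnitine-acylcarnitine carrier that brings fatty acids to beta-oxidation, measured 24.3, 29.8 and 32.03 FPKM in IPO, 40.8, 44.1 and 48.9 FPKM in I/R and 40.2, 40.9 and 36.8 FPKM in sham livers. All IPO libraries were below all others, and I/R and sham libraries overlapped. In IPO against I/R it changed by -0.63 ± 0.13 (adjusted p = 0.0112). Slc25a11, the oxoglutarate-malate carrier, measured 14.5, 17.99 and 17.2 FPKM in IPO, 27.4, 27.03 and 23.96 FPKM in I/R and 21.3, 22.3 and 21.7 FPKM in sham livers. The groups were separate in the order IPO, sham, I/R, and the change in IPO against I/R was -0.65 ± 0.12 (adjusted p = 0.00681). Slc25a13 (citrin), the aspartate-glutamate carrier of liver, was called at -0.42 ± 0.12 (adjusted p = 0.0321), and the call was lost without any 1 of the IPO libraries, I/R replicate 2 or 3, or sham replicate 1 (0.0511 to 0.109). Slc25a22, a glutamate carrier, was called at -0.98 ± 0.27 (adjusted p = 0.0291) and lost its call without IPO replicate 1 (0.0929), IPO replicate 3 (0.0541) or I/R replicate 1 (0.0746).

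The other lower calls of the class in IPO against I/R were Slc25a29, Slc25a34, Slc25a48, Slc25a38 and Slc25a21, at log2 fold changes of -1.30, -1.16, -0.76, -0.50 and -0.45, all with group means under 7 FPKM. Slc25a29, a carrier of basic amino acids, lost its call without IPO replicate 3 (adjusted p = 0.0634) or I/R replicate 1 (0.0583). The other 4 lost theirs without IPO replicate 1, 2 or 3 or I/R replicate 2, and, apart from Slc25a21, without I/R replicate 1; Slc25a21 also lost its call without I/R replicate 3, sham replicate 1 or sham replicate 2 (adjusted p 0.0518 to 0.148 over these fits).

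Among the falls of the class in I/R livers, where 4 carriers rose, was that of Slc25a51, the mitochondrial NAD carrier. It measured 26.6, 29.5 and 28.9 FPKM in IPO, 17.7, 16.8 and 15.5 FPKM in I/R and 33.8, 58.7 and 29.4 FPKM in sham livers. Every I/R library was below all others. Slc25a51 changed by -1.20 ± 0.22 in I/R against sham (adjusted p = 0.0122) and 0.75 ± 0.22 in IPO against I/R (adjusted p = 0.0392), and the second call was lost without any 1 of the IPO or I/R libraries (0.0666 to 0.105). The abundant carriers Slc25a5 (ADP/ATP exchange; 197 to 256 FPKM over the 9 libraries) and Slc25a15 (ornithine for the urea cycle; 93.2 to 133 FPKM) were not called in any comparison, nor was Slc25a39 (glutathione), with adjusted p = 0.0898 in IPO against I/R.

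Fatty acid transport proteins of the Slc27 family couple uptake of long-chain fatty acids to acyl-CoA synthesis, and all 4 members were tested. In IPO livers 2 fell relative to I/R livers (50%, against 10.1% of all tested genes) and limma called 0 higher (0 at an unadjusted p under 0.05), with a class median of -0.57; in I/R against sham limma called 0, with 1 at an unadjusted p under 0.05. Slc27a1 (FATP1) measured 2.42, 3.93 and 3.58 FPKM in IPO, 13.6, 8.07 and 6.86 FPKM in I/R and 4.65, 5.24 and 6.20 FPKM in sham livers. The 3 groups did not overlap. Its log2 fold change in IPO against I/R was -1.36 ± 0.25 (adjusted p = 0.00665), and 0.72 ± 0.25 in I/R against sham did not pass (adjusted p = 0.0913). Slc27a2 (FATP2), the second most abundant member, had 325, 405 and 379 FPKM in IPO, 579, 527 and 474 FPKM in I/R and 411, 441 and 462 FPKM in sham livers. It was called at -0.51 ± 0.13 in IPO against I/R (adjusted p = 0.0205), and this was lost without IPO replicate 1 (0.0745), IPO replicate 3 (0.0576) or I/R replicate 2 (0.0575). Slc27a5, the bile acid and fatty acid ligase of liver, was not called, at -0.36 ± 0.15 in IPO against I/R (adjusted p = 0.121).

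Among sugar transporters, 9 of 11 were tested, and a single gene stood out. Slc37a1 (chr17:31295483-31350696, plus strand), a glucose 6-phosphate and phosphate exchanger of the endoplasmic reticulum, measured 8.13, 10.2 and 7.37 FPKM in IPO, 0.406, 0.358 and 0.841 FPKM in I/R and 11.8, 8.02 and 4.73 FPKM in sham livers. All I/R libraries were below 1 FPKM and all others above 4 FPKM. The log2 fold change of Slc37a1 was -3.01 ± 0.30 in I/R against sham (adjusted p = 0.00125) and 3.15 ± 0.30 in IPO against I/R (adjusted p = 0.000426), the largest of all members in each comparison. Slc37a4, the glucose 6-phosphate transporter that glucose release depends on, was not called in either comparison, at -0.08 ± 0.21 and -0.46 ± 0.21. Slc2a2 (GLUT2), the main hepatocyte glucose transporter, was not called either, at 0.28 ± 0.35 and 0.26 ± 0.35, with 21.3 to 33.6 FPKM in IPO, 16.4 to 25.6 FPKM in I/R and 11.6 to 32.7 FPKM in sham livers. Slc2a8 (GLUT8), an intracellular hexose transporter, fell by 0.59 on the log2 scale in IPO against I/R (adjusted p = 0.0384). That call was lost without any 1 of the IPO libraries, I/R replicate 1 or 2, or sham replicate 1 or 2 (0.0517 to 0.114).

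The window of Slc37a1, chr17:31295974-31296223 on the plus strand, is shown for the largest change of all members. It matches the loose metal pattern 205 to 199 bases before the RefSeq start, without the A or G of the usual metal core. This window lies within the span of the gene given above.
Slc37a1: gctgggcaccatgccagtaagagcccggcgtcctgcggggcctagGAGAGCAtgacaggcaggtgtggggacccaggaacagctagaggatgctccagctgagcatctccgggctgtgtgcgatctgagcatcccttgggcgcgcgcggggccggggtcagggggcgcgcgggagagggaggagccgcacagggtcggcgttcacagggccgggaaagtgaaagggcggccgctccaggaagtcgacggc

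Organic ion transporters, with 22 of 28 tested, changed in both directions. In I/R livers 2 rose and 2 fell relative to sham livers, and in IPO livers 3 rose and 4 fell relative to I/R livers. In I/R against sham these were 9.09% each way, against 3.86% higher and 7.64% lower among all tested genes; in IPO against I/R they were 13.6% and 18.2%, against 11.96% and 10.1%. Slc10a2 (ASBT, chr8:5083219-5105351, minus strand), the sodium-dependent bile acid importer of ileum and bile duct epithelium, measured 48.5, 45.3 and 48.4 FPKM in IPO, 2.55, 5.51 and 11.9 FPKM in I/R and 28.9, 23.9 and 15.9 FPKM in sham livers. The groups were separate, lowest in I/R and highest in IPO. Its log2 fold change was 2.97 ± 0.42 in IPO against I/R (adjusted p = 0.0024) and -1.90 ± 0.42 in I/R against sham (adjusted p = 0.0231); 1.07 ± 0.42 in IPO against sham did not pass (adjusted p = 0.34). The call in I/R against sham was lost without I/R replicate 2 (0.0553), sham replicate 1 (0.0893) or sham replicate 2 (0.0827), with only the 2 groups in the fit (0.0719), and with the description number as a term (0.126). The cholangiocyte markers in the table, 4 of 6 listed, summed to 24.4 to 33.999 FPKM in IPO, 29.2 to 39.99 FPKM in I/R and 19.02 to 25.2 FPKM in sham libraries. In I/R replicate 1, where Slc10a2 was lowest, Spp1 had its lowest value of all libraries (12.6 FPKM) but Sox9 its highest (25.9 FPKM). Spp1 was nearly as low in sham replicate 2 (12.8 FPKM). The sum of the cholangiocyte markers was also highest in I/R replicate 1, at 39.99 FPKM. Sox9 and Spp1 made up most of it, with Krt19 at 0.654 FPKM and Epcam at 0.86 FPKM. The part of cholangiocytes in the result was not tested.

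The Slc10a2 window, chr8:5105288-5105537 on the minus strand, is shown for the largest change of this class. The capitals match the loose AP-1 pattern 118 to 112 bases before the RefSeq start, without the C or G of the usual AP-1 site. This window partly overlaps the span of the gene given above.
Slc10a2: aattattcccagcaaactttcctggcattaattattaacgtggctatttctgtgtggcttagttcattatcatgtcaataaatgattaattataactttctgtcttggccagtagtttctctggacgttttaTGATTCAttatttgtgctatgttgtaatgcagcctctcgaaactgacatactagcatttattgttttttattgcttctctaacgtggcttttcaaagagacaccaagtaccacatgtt

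Slc10a6, a transporter of sulphated steroids, changed in the same directions as Slc10a2 at a lower level, with 3.76, 5.68 and 3.56 FPKM in IPO, 0.334, 0.612 and 0.576 FPKM in I/R and 4.61, 2.19 and 0.984 FPKM in sham livers. It changed by 2.25 ± 0.38 in IPO against I/R (adjusted p = 0.00476) and by -1.45 ± 0.38 in I/R against sham (adjusted p = 0.0415), where the call was lost in 8 of 9 fits that left out a library, all but the fit without sham replicate 3 (0.0564 to 0.115). Slc47a1 (MATE1), which exports organic cations into bile, fell in IPO against I/R by 0.69 on the log2 scale (adjusted p = 0.0166), and lost this call without any 1 of the IPO libraries (0.05001 to 0.0558).

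**Figure D3:**
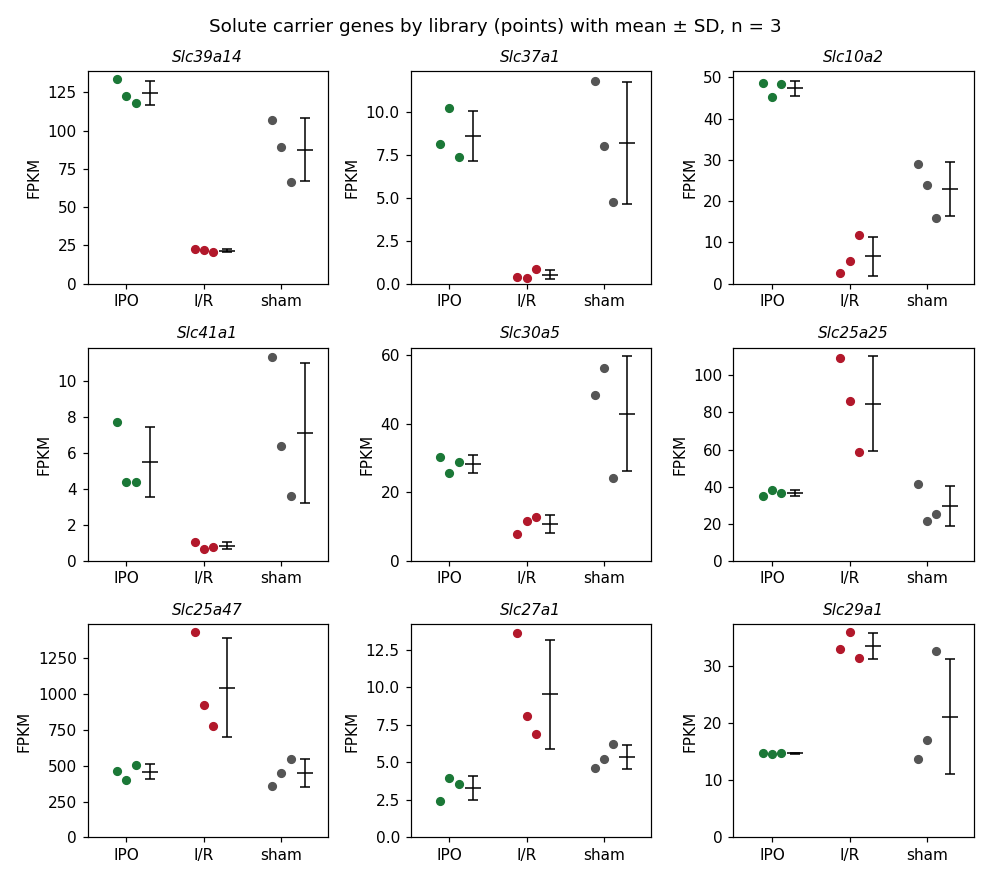
FPKM (y axis, linear from 0) of 9 members in each library (points), with mean ± SD of the 3 libraries per group, for IPO, I/R and sham livers. Slc39a14, Slc37a1, Slc10a2, Slc41a1 and Slc30a5 are lowest in all 3 I/R libraries, and Slc25a25, Slc25a47 and Slc27a1 are highest there; for Slc29a1, sham replicate 3 at 32.8 FPKM lies among the I/R libraries.

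Amino acid transporters, with 21 of 27 tested, included several of the most abundant members. In I/R livers 2 fell and limma called 0 higher relative to sham livers (4 at an unadjusted p under 0.05), and in IPO livers 4 rose and 1 fell relative to I/R livers, with class medians of 0.08 and -0.01. The falls in I/R livers were 9.52% of the class, against 7.64% of all tested genes; in IPO livers the rises were 19.05% and the falls 4.76%, against 11.96% and 10.1%. Slc16a10 (TAT1), a uniporter that lets aromatic amino acids equilibrate with blood, had 45.9, 50.2 and 38.97 FPKM in IPO, 26.3, 30.9 and 36.5 FPKM in I/R and 58.4, 55.2 and 53.9 FPKM in sham livers. The 3 groups were separate, with IPO between the others. It changed by -0.84 ± 0.15 in I/R against sham (adjusted p = 0.00985, or 0.0906 and not called with the description number as a term) and by 0.53 ± 0.15 in IPO against I/R (adjusted p = 0.032), where the call was lost without IPO replicate 1 or 2 or I/R replicate 1 or 2 (0.0713 to 0.111). Slc38a2 (SNAT2), a sodium-coupled importer of neutral amino acids that responds to amino acid shortage, had 157, 143 and 134 FPKM in IPO, 64.1, 101 and 78.5 FPKM in I/R and 146, 81.7 and 156 FPKM in sham livers. It was called in IPO against I/R at 0.85 ± 0.25 (adjusted p = 0.0374), and lost the call without any 1 of the IPO libraries or I/R replicate 1 or 3 (0.0666 to 0.11).

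Slc36a4, a high-affinity amino acid transporter, measured 3.86, 5.48 and 4.87 FPKM in IPO, 1.78, 1.35 and 2.26 FPKM in I/R and 4.12, 3.50 and 2.41 FPKM in sham livers. It rose by 1.20 ± 0.22 in IPO against I/R (adjusted p = 0.00615), and -0.73 ± 0.22 in I/R against sham did not pass (adjusted p = 0.0583). Slc3a1 (rBAT), the heavy chain of the cystine and basic amino acid transporter, rose by 0.97 ± 0.22 in IPO against I/R (adjusted p = 0.0156); it overlaps Prepl on the other strand. Slc43a1 (LAT3), a transporter of large neutral amino acids, was low, at 0.859 to 1.06 FPKM in IPO, 0.715 to 1.56 FPKM in I/R and 2.01 to 5.76 FPKM in sham livers. It was called in I/R against sham at -1.27 ± 0.34 (adjusted p = 0.0426), a call lost without any 1 of the IPO libraries, I/R replicate 2 or 3, or sham replicate 1 or 2 (0.0595 to 0.102). The abundant system A and N transporters Slc38a4 (209 to 392 FPKM) and Slc38a3 (71.4 to 133 FPKM) and the arginine transporter Slc7a2 (59.0 to 171 FPKM) were not called in any comparison, and their sham libraries alone spanned 59.0 to 171 FPKM for Slc7a2. No promoter window of an amino acid member is shown.

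A magnesium transporter and an iron transporter fell in I/R livers. Slc41a1 (chr1:131827493-131848865, plus strand), a magnesium transporter of the plasma membrane, measured 7.73, 4.38 and 4.38 FPKM in IPO, 1.06, 0.656 and 0.769 FPKM in I/R and 11.4, 6.37 and 3.62 FPKM in sham livers. The I/R libraries were below all others, and IPO and sham overlapped. It changed by -2.40 ± 0.36 in I/R against sham (adjusted p = 0.0051) and by 2.14 ± 0.36 in IPO against I/R (adjusted p = 0.00425). The call in I/R against sham was lost with the description number as a term (adjusted p = 0.064). Slc11a2 (DMT1), an importer of ferrous iron, changed by -0.95 ± 0.25 in I/R against sham (adjusted p = 0.0407), a call lost in 8 of 9 fits that left out a library, all but the fit without sham replicate 3 (0.0571 to 0.138). The Slc41a1 window, chr1:131827762-131828011 on the plus strand, is shown because Slc41a1 had the second largest fall in I/R livers, and holds a metal response element core 231 to 225 bases before the RefSeq start. This window lies within the span of the gene given above.
Slc41a1: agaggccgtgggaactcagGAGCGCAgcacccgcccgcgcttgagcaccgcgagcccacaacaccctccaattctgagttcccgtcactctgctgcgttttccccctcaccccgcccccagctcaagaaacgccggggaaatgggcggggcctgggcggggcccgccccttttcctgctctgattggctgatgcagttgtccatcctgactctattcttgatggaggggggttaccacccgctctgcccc

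Nucleoside and nucleotide sugar transporters, with 20 of 22 tested, showed 3 falls and 1 rise in I/R against sham, which is 15% and 5% of the class, against 7.64% and 3.86% of all tested genes. In IPO against I/R there were 3 rises and 2 falls, 15% and 10% of the class, against 11.96% and 10.1% of all tested genes. Slc29a1 (ENT1), the equilibrative carrier that clears extracellular adenosine, had 14.8, 14.6 and 14.8 FPKM in IPO, 33.1, 36.1 and 31.5 FPKM in I/R and 13.7, 17.1 and 32.8 FPKM in sham livers. The IPO libraries were nearly identical and below all I/R libraries. Slc29a1 changed by -1.16 ± 0.26 in IPO against I/R (adjusted p = 0.014), and 0.75 ± 0.26 in I/R against sham did not pass (adjusted p = 0.0905). Slc35e3, a Golgi-type carrier of unknown substrate, was called at -1.03 ± 0.18 in I/R against sham (adjusted p = 0.00924) and 0.80 ± 0.18 in IPO against I/R (adjusted p = 0.0139), the second lost without IPO replicate 1 (0.0532). Slc35b3, which carries the sulphate donor PAPS into the Golgi, was called at -0.72 ± 0.17 (adjusted p = 0.0283) and 0.84 ± 0.17 (adjusted p = 0.00864), the first lost without IPO replicate 3, I/R replicate 1 or 2, or sham replicate 1 or 2 (0.0526 to 0.106). Slc35d1, an importer of UDP-glucuronic acid into the endoplasmic reticulum, where it feeds glucuronidation, was called at -0.72 ± 0.17 (adjusted p = 0.0279) and 0.58 ± 0.17 (adjusted p = 0.0366), both lost without IPO replicate 3 or I/R replicate 1 or 2, the first also without sham replicate 1 or 2 and the second without IPO replicate 1 or 2 (0.0517 to 0.102). Slc35b2, the other Golgi importer of PAPS, had 6.64, 6.97 and 7.39 FPKM in IPO, 12.5, 9.97 and 8.41 FPKM in I/R and 6.47, 6.03 and 7.29 FPKM in sham livers. It changed in the opposite directions to Slc35b3, at 0.59 ± 0.15 in I/R against sham (adjusted p = 0.0396) and -0.51 ± 0.15 in IPO against I/R (adjusted p = 0.0421), both lost without any 1 library other than I/R replicate 3 and sham replicate 3 (0.0551 to 0.132).

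Of the remaining classes, inorganic ion transporters (16 of 20 tested) held 1 fall in I/R against sham (6.25%, against 7.64% of all tested genes) and 2 rises and 1 fall in IPO against I/R (12.5% and 6.25%, against 11.96% and 10.1%). Slc12a7 (KCC4) had 6.62, 7.41 and 7.22 FPKM in IPO, 13.4, 13.2 and 12.5 FPKM in I/R and 10.5, 10.4 and 13.1 FPKM in sham livers, with IPO below all others. It changed by -0.83 ± 0.13 in IPO against I/R (adjusted p = 0.00296). Vitamin carriers (10 of 11 tested) were led by Slc23a2 (SVCT2), an ascorbate importer, with 10.2, 8.80 and 8.65 FPKM in IPO, 5.59, 3.17 and 3.53 FPKM in I/R and 6.73, 5.46 and 5.26 FPKM in sham livers. It changed by 1.11 ± 0.19 in IPO against I/R (adjusted p = 0.00532), where the groups did not overlap. Slc46a1 (PCFT), the proton-coupled folate transporter, rose by 0.58 ± 0.14 in I/R against sham (adjusted p = 0.0292) and changed by -0.52 ± 0.14 in IPO against I/R (adjusted p = 0.0267), both lost without I/R replicate 1 or 2, the first also without sham replicate 1 or 2 and the second without any 1 of the IPO libraries (0.0577 to 0.109). The scaffold protein Slc9a3r1 (NHERF1), which carries a solute carrier symbol but transports nothing, fell in I/R against sham by 0.87 on the log2 scale (adjusted p = 0.0326), lost without any 1 of the I/R libraries, IPO replicate 3, or sham replicate 1 or 2 (0.0544 to 0.114).

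Among carboxylate transporters, Slc16a12, a creatine transporter, measured 21.6, 23.3 and 20.9 FPKM in IPO, 7.39, 14.9 and 14.4 FPKM in I/R and 14.9, 15.4 and 21.95 FPKM in sham livers. It rose by 0.88 ± 0.25 in IPO against I/R (adjusted p = 0.0363), lost without any 1 of the IPO libraries or I/R replicate 1 (0.0534 to 0.101). Slc15a4, a lysosomal histidine and peptide transporter, fell in IPO against I/R by 0.86 on the log2 scale (adjusted p = 0.0477), lost without any 1 of the IPO or I/R libraries or sham replicate 2 (0.0541 to 0.126). The smallest p of their classes in one of the comparisons, without a call, belonged to Slc15a3 (0.85 ± 0.31 in I/R against sham, adjusted p = 0.107), Slc46a3 (0.77 ± 0.24 in I/R against sham, adjusted p = 0.0689) and the scaffold gene Slc9a3r2 (-0.56 ± 0.20 in IPO against I/R, adjusted p = 0.0719).

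**Figure D4:**
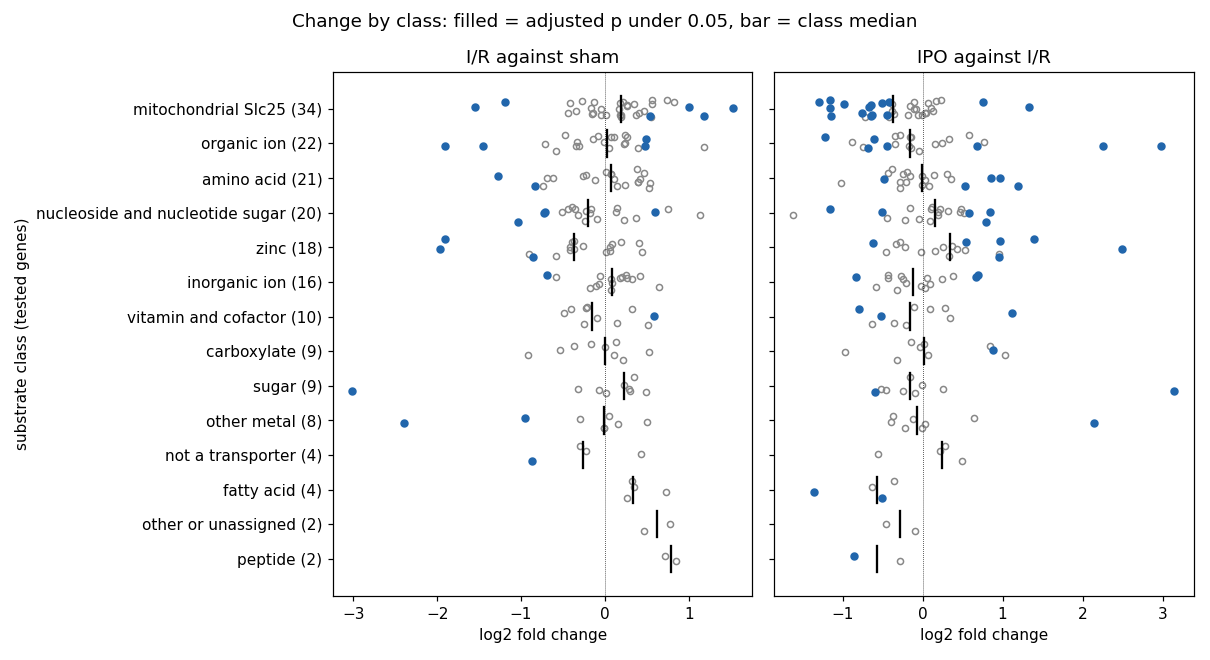
Log2 fold change (x axis) of every tested member by substrate class (rows, number tested in brackets) in I/R against sham (left) and IPO against I/R (right); filled points passed an adjusted p of 0.05 and bars are class medians. In IPO against I/R the Slc25 median lies at -0.37 and the zinc median at 0.35; in I/R against sham they lie at 0.19 and -0.37.

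Other transporter families were counted in the same fit. Of 5 tested Slco organic anion transporters and 4 Na,K-ATPase subunits, limma called 0 in any comparison; at an unadjusted p under 0.05 there was 1 Slco gene in IPO against I/R and 1 subunit gene in IPO against sham, and 0 in the other comparisons. Among 31 tested ABC transporters, 2 rose and 2 fell in I/R livers against sham, and 2 rose and 6 fell in IPO livers against I/R. These were 6.45% each way, against 3.86% higher and 7.64% lower among all tested genes, and 6.45% and 19.4%, against 11.96% and 10.1%. Abca1, the cholesterol exporter, measured 93.9, 80.3 and 82.9 FPKM in IPO, 20.4, 14.1 and 14.7 FPKM in I/R and 89.2, 62.6 and 35.4 FPKM in sham livers, with log2 fold changes of 2.37 in IPO against I/R (adjusted p = 0.00116) and -1.82 in I/R against sham (adjusted p = 0.00685). Abca1 was chosen after its values were seen, and most ABC calls in IPO against I/R were falls. Of 9 tested amino acid response genes, 3 rose in I/R livers against sham (33.3%, against 3.86% of all tested genes) and 5 fell in IPO livers against I/R (55.6%, against 10.1%). The 3 that rose were Cth, Sesn2 and Trib3. Not called in I/R against sham were Ddit3, Atf5, Shmt2, Asns, Atf4 and Chac1, at 1.09, 0.67, 0.30, 0.21, 0.0019 and -0.99. Of 4 tested aquaporins, 2 rose in I/R livers against sham (50%, against 3.86%), limma called 0 in IPO against I/R (1 at an unadjusted p under 0.05), and 1 was higher in IPO livers against sham (25%, against 0.124%). The last was Aqp8, a water channel of hepatocytes, with 28.5, 17.3 and 35.6 FPKM in IPO, 23.3, 14.3 and 14.7 FPKM in I/R and 5.62, 3.32 and 6.57 FPKM in sham livers; its log2 fold change in IPO against sham was 2.27 (adjusted p = 0.027) and in I/R against sham 1.67 (adjusted p = 0.0127). The other aquaporin called in I/R against sham was Aqp9, at 0.45 (adjusted p = 0.0404), and both were chosen after their values were seen.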

How the data were processed

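RNA from mouse liver was sequenced in 9 libraries, 3 per group, after stranded library preparation, per the labels' protocols. FPKM values per gene are the authors' own, as deposited, with mm10 as the build per the submitters' processing notes. The sources used here give neither the aligner nor the quantifier, any filter or the use of strand. Depth is therefore unknown, and low values gave no whole reads: at most 3.57% of the ratios between libraries fell in any window 1% wide. The authors' deposited tables of differing genes also hold log2 fold changes, fold values, p-values and q-values; their columns headed as group FPKM equal means of log2(FPKM + 1). These tables served for comparison only.

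Samples were grouped by their treatment label. limma 3.58.1 in R 4.3.3 was fitted to log2(FPKM + 0.5) of the 9649 genes averaging 1 FPKM or more, with 3 group means, a variance trend and no block (6 residual and 3.559 prior degrees of freedom); tests were two-sided and Benjamini-Hochberg adjusted over all tested genes within each of 3 comparisons. An exact permutation test of 3 against 3 libraries could not go below 0.1 and was not used. The script was tested on simulated data. Substrate classes follow the family numbers and general knowledge. The genes named are, per comparison, up to 12 largest rises and falls among called members whose higher group mean reached 5 FPKM, the smallest p per class and the 15 highest means; Slc30a4, Slc30a7, Slc39a4, Slc39a10, Slc30a1, Slc30a10, Slc10a6, Slc43a1, Slc2a2, Slc2a8, Slc25a20, Slc25a21, Slc25a29, Slc25a38 and Slc25a48 were added after their values were seen. The members and lists were chosen with earlier results of these data known. Alternatives were other pseudocounts, filters, scalings, the replicate number as a block, fits of 2 groups, robust estimation, a number in the sample descriptions as a term, and leaving out each library. Of the 208 gene identifiers, all were in GENCODE M21, 34 overlap another gene on the same strand and 79 on the other strand. Upstream windows come from RefSeq on GRCm38.p6. A few genes picked by this rule are left unreported.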

Additional observations from a re-analysis of the deposited data

How the results depend on the processing

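With a filter at a mean of 5 FPKM, which leaves fewer genes to test, the lower members in I/R against sham were 11 and the higher members in IPO against I/R 13, with 650 and 1229 genes of all kinds. With only the 2 groups compared in the fit, I/R against sham gave 2 higher and 8 lower members and 341 genes in all. With the replicate number as a block, I/R against sham gave 5 higher and 11 lower members and 646 genes in all, and IPO against sham 2 genes in all. The 9 same-numbered pairs of libraries had correlations of -0.137 to 0.0653, 0 of them over 0.1, and 1 library correlated best with its own number, so the numbers were not taken to pair the samples. A number in the sample descriptions, whose meaning is not given, could be fitted as a term only in I/R against sham, where it left 2 higher and 6 lower members and 186 genes in all; it cannot be told apart from IPO in the other comparisons. Leaving out each library in turn gave, in I/R against sham, 2 to 13 higher and 8 to 23 lower members and 310 to 1361 genes in all. In IPO against I/R it gave 13 to 26 higher and 9 to 31 lower members and 1085 to 2231 genes in all, and in IPO against sham 1 to 26 genes in all. The cause of these differences was not tested. The counts of called members and of all called genes stayed within 1.5 times those reported with pseudocounts of 0.1 and 1, no filter, median-of-ratios scaling, quantile normalization and robust estimation. Among the single genes followed, 0 changed direction with a call under any alternative; 4 calls were lost and 2 gained with median-of-ratios scaling, 9 lost and 2 gained with quantile normalization, and 27 lost and 2 gained with the block. Of the genes named in the report, calls in I/R against sham were lost with the description number for Slc10a2, Slc10a6, Slc11a2, Slc16a10, Slc25a10, Slc25a47, Slc30a7, Slc35b2, Slc35b3, Slc35d1, Slc41a1, Slc43a1, Slc46a1 and Slc9a3r1, and with 2 groups only for these except Slc16a10 and Slc41a1 (adjusted p 0.0531 to 0.103). With 2 groups only, IPO against I/R lost Slc16a10, Slc16a12, Slc25a21, Slc25a22, Slc2a8, Slc30a4 and Slc35b2 (0.0524 to 0.0707). The block ended 8 calls in I/R against sham (Slc10a6, Slc11a2, Slc25a10, Slc30a7, Slc35b2, Slc35b3, Slc35d1 and Slc46a1; 0.0515 to 0.077) and 14 in IPO against I/R (Slc15a4, Slc16a10, Slc25a13, Slc25a21, Slc25a22, Slc25a33, Slc25a48, Slc2a8, Slc30a4, Slc35b2, Slc35d1, Slc38a2, Slc39a10 and Slc46a1; 0.0536 to 0.0882). Scaling by median-of-ratios ended Slc35b2 in both comparisons, Slc43a1 in I/R against sham and Slc2a8 in IPO against I/R (0.0512 to 0.0654); quantile normalization ended Slc10a6, Slc25a10 and Slc43a1 in I/R against sham and Slc25a13, Slc35b2 and Slc39a10 in IPO against I/R (0.0502 to 0.0878); a pseudocount of 1 ended Slc10a6 in I/R against sham (0.0515). Without counts, the depth behind low FPKM values is unknown.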
